A study of Mus musculus with 24 samples.

Results

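The 10 genes Ntng1, Slc17a6, Prkcd, Ramp3, Tnnt1, Tcf7l2, Synpo2, Rgs16, Zic1 and Lef1 are known as markers of the thalamus, the relay structure beneath the cortex. Here they served as a check on what a cortex dissection carried with it. They were taken by gene symbol, as 10 of 22180 named genes on the arrays, with 1 probe set each. RNA of the dissected cortex was measured on 24 arrays, 1 for each of 24 male mice aged 18 days, in 8 groups of 3. CBE (conduritol B-epoxide) inhibits the lysosomal enzyme that is deficient in Gaucher disease, and the CBE mice are labelled as a model of the neuronopathic form. In each of the strains SV129, FVB, C57 and C3H, 3 mice received CBE by intraperitoneal injection at 25 mg per kg per day, starting on day 8 and ending on day 18. The other 3 mice of each strain received PBS and are labelled as healthy controls. The C57 mice were C57BL/6JOlaHsd. The labels name no altered allele in any group. The labels give 2 accounts of the dissection, one in which the slice that held the cortex was cut from coronal sections and frozen, and one in which the cortex was taken off with a spatula.

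Thalamic relay neurons send their axons into the cortex, but their cell bodies, where most of their mRNA lies, stay in the thalamus. A piece of thalamus left on a cortex sample would add RNA of many thalamic genes to that sample at once. Several of the 10 genes are also expressed by other cells near the cortex, Zic1 in meninges, Lef1 in endothelial cells and Tcf7l2 in oligodendrocytes that are maturing. In such bulk samples, fewer cells of a type and less RNA per cell cannot be told apart.

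By role, Slc17a6 encodes the vesicular glutamate transporter that thalamic relay neurons use, and Ntng1 encodes netrin-G1, an adhesion protein on thalamocortical axons. Prkcd is a protein kinase C, Ramp3 is an accessory subunit of calcitonin-family receptors, and Rgs16 switches G-protein signals off. Tnnt1 is the troponin T of slow skeletal muscle and Synpo2 binds actin. Tcf7l2 and Lef1 are transcription factors of the Wnt pathway with a shared DNA motif, and Zic1 is a zinc-finger transcription factor. All 10 genes had an upstream window in RefSeq, and the sequences of 3 are shown. Ntng1 and Slc17a6 are shown because their changes under CBE in SV129 mice were the largest of the 10, and Prkcd because it was the member whose window at this start held the motif searched. Each is the 250 bases before the farthest upstream annotated start, read 5′ to 3′ on the gene's strand in GRCm38.p6: chr3:110143473-110143722 on the minus strand for Ntng1, chr7:51621580-51621829 on the plus strand for Slc17a6, and chr14:30626209-30626458 on the minus strand for Prkcd.
Ntng1: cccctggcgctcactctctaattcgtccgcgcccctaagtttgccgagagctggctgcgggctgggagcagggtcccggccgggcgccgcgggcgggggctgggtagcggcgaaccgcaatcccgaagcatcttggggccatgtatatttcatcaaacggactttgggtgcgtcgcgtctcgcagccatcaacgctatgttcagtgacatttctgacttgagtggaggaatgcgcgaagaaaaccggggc
Slc17a6: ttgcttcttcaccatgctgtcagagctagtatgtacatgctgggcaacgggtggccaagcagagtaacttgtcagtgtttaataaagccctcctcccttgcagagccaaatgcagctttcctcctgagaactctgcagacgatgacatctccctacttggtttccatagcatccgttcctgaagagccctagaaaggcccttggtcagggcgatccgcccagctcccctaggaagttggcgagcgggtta
Prkcd: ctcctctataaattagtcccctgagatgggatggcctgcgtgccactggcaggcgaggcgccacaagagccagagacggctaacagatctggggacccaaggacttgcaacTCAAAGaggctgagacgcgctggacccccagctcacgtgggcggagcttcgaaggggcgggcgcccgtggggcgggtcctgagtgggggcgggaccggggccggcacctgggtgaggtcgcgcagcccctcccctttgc
Capitals mark CTTTGA or its reverse complement TCAAAG, the core letters bound by Tcf7l2 and Lef1, searched on both strands. Of the 10 members, 1 held a match before this start, Prkcd, at position -139 from the start. Over all annotated starts, 2 of 16 windows of the members held a match, the other before another start of Lef1, and 13.8% of all 32851 RefSeq windows of this length did. Such a match describes letters and is no evidence of binding. The G and C share was 62.4% in the Ntng1 window, 53.2% in the Slc17a6 window and 67.6% in the Prkcd window, against a median of 52.4% over all windows.

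The deposited values are log2 signals with a median of 4.18 and an upper quartile of 6.18 over all probe sets, and array medians lay between 4.14 and 4.22. In SV129 mice the 3 CBE array medians (4.19 to 4.22) lay above the 3 PBS medians (4.14 to 4.17). The tissue label was checked on 14 cortical excitatory neuron genes, whose mean level lay between 7.82 and 8.38 on the arrays, above that upper quartile. Slc17a7, the glutamate transporter of cortical neurons, averaged 11.1 to 11.3 in the 8 groups. Lists of 11 hypothalamus and 9 choroid plexus genes had mean levels under the median of all probe sets in every group. Lists of other regions lay above that median on all arrays. The mean level was 5.84 to 6.12 for 8 habenula genes and 5.55 to 5.82 for 15 other thalamus markers. It was 5.17 to 5.89 for 9 striatum genes, 4.30 to 4.59 for 11 hippocampus genes and 4.38 to 4.60 for 6 septum genes. Some genes of these lists are not analysed here.

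All 10 thalamus markers had a signal, though 3 of them lay at or under the median of all probe sets. Slc17a6 and Ntng1 gave the brightest signals, with means over the 24 arrays of 8.18 and 7.66, higher than the means of 83.8% and 79.2% of genes. Rgs16 (6.71) also lay above the upper quartile of all probe sets, and Ramp3 (5.65), Prkcd (5.31), Lef1 (5.20) and Zic1 (5.03) lay between the median and that quartile. Tcf7l2 (4.14), Tnnt1 (3.76) and Synpo2 (3.39) lay lowest, where a probe set can hide or shrink a change. Probe sets differ in how brightly they bind, so these levels place each signal on the array and do not rank the genes' RNA.

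**Figure D1:**
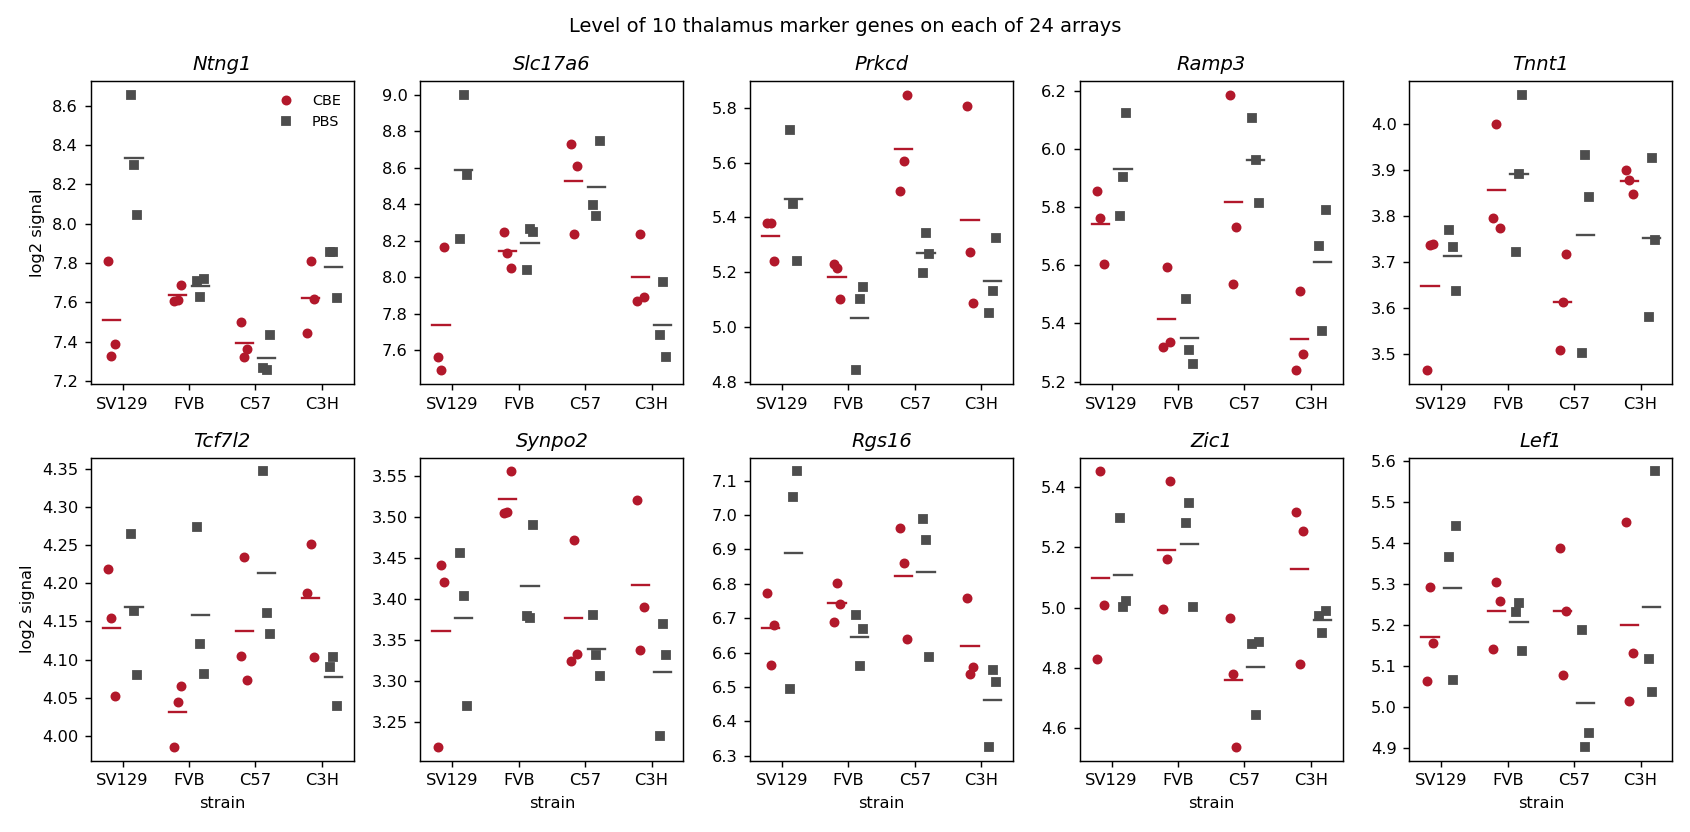
Log2 signal of each marker on each array, 1 panel per gene, with the CBE arrays of a strain left of its PBS arrays; points are arrays and bars are group means. Ntng1 on the 3 SV129 PBS arrays (8.04 to 8.65) stands above all other arrays, and Slc17a6 is lowest on SV129 CBE replicate 2 (7.49).

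Under CBE, 1 marker changed in 1 strain. In SV129 mice Ntng1 fell by 0.82 on the log2 scale, and no marker passed the test in FVB, C57 or C3H mice. All 10 markers had a lower mean in the CBE mice of SV129 than in its PBS mice, a direction that 50.7% of all genes had. That count was 7 without SV129 PBS replicate 1 or SV129 CBE replicate 1 and 8 without SV129 CBE replicate 3. Of these differences, those of Ntng1 and Slc17a6 exceeded 0.8 in size and those of the other 8 ran between 0.01 and 0.22, with none of the 8 past the test.

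Ntng1 stood at 7.81, 7.33 and 7.39 on the CBE arrays of SV129 mice, against 8.65, 8.30 and 8.04 on the PBS arrays. The groups did not overlap, and the highest CBE array was replicate 1. The change was -0.82 (SE 0.13, 95% confidence interval -1.10 to -0.55, n = 3 each), with an adjusted p of 0.010 in limma after Benjamini-Hochberg adjustment over all genes. Of all genes, 0.0992% passed this test with a fall in SV129 mice, and Ntng1, as 1 of 10 markers, was the 7th of all genes by p. Without SV129 CBE replicate 2 the adjusted p was 0.0927 with a change of -0.73, and without SV129 CBE replicate 3 it was 0.0626 with a change of -0.76. An ordinary linear model gave 0.0506 and a fit on the 6 SV129 arrays alone gave 0.37. An exact permutation test of 3 against 3 arrays cannot give a p below 0.1, so the call leans on the spread shared by the 8 groups. The SD of Ntng1 was 0.26 under CBE and 0.31 under PBS in SV129 mice, and 0.05 to 0.18 in the groups of other strains. The SE and interval rest on the shared spread (SD 0.173 inside groups), which is smaller than that of the SV129 mice.

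Slc17a6 stood at 7.56, 7.49 and 8.17 on the CBE arrays of SV129 mice, against 8.21, 9.0 and 8.56 on the PBS arrays. The groups did not overlap, but the highest CBE array (replicate 3) and the lowest PBS array (replicate 1) were close. The change was -0.85 (SE 0.19, 95% confidence interval -1.24 to -0.46, n = 3 each) with a limma adjusted p of 0.0659. This interval too rests on the shared spread (SD 0.256 inside groups). The SD of Slc17a6 was 0.37 under CBE and 0.40 under PBS in SV129 mice, and 0.10 to 0.26 in the groups of other strains. It passed the threshold without SV129 PBS replicate 1 (-1.04, adjusted p = 0.0162) and without SV129 CBE replicate 3 (-1.06, adjusted p = 0.0356). Slc17a6 and Ntng1 were the 2 of 10 markers whose CBE arrays all lay below the PBS arrays in SV129 mice, against 8.99% of all genes.

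Among the receptor and signalling genes in SV129 mice, Rgs16 stood at 6.77, 6.56 and 6.68 under CBE, against 6.49, 7.05 and 7.13 under PBS. Its PBS replicate 1 lay below all 3 CBE arrays. The change was -0.22, with a limma adjusted p of 0.517. Ramp3 stood at 5.86, 5.76 and 5.60 under CBE, against 5.77, 5.90 and 6.12 under PBS, with a change of -0.19 and a limma adjusted p of 0.611. Prkcd stood at 5.38, 5.38 and 5.24 under CBE, against 5.72, 5.45 and 5.24 under PBS. Its groups overlapped, and the change of -0.14 had a limma adjusted p of 0.745. CBE minus PBS was -0.12 for the Wnt factor Lef1, -0.03 for Tcf7l2 and -0.01 for Zic1. It was -0.07 for Tnnt1, the muscle gene, and -0.02 for Synpo2, the actin binder. None of these 5 passed the test, with limma adjusted p-values between 0.758 and 0.986.

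Over the 10 markers the median change in SV129 mice was -0.13, against -0.0025 over all genes. With each array centred on its own median, it was -0.18, against -0.06 over all genes, and all 10 lay below 0. Without SV129 PBS replicate 1 the median was -0.06, against -0.0033 over all genes, and 7 of 10 lay below 0. The mean level of the 10 markers lay between 5.42 and 5.46 on the SV129 CBE arrays and between 5.65 and 5.71 on the PBS arrays. Ntng1 (-0.82) and Slc17a6 (-0.85) weighed most in that mean, and each of the other 8 markers overlapped between CBE and PBS arrays. Of the 12 other lists, the other thalamus markers described below, the cortical genes and the septum genes stood lower in the same mice without overlap, the hippocampus genes stood higher, and the other 8 overlapped. The 14 cortical excitatory genes had mean levels of 7.83 to 8.10 under CBE and 8.15 to 8.27 under PBS, with a median change of -0.18 and 9 of 14 below 0. The 6 septum genes had mean levels of 4.38 to 4.45 under CBE and 4.53 to 4.60 under PBS. Their median change was -0.05, with 4 of 6 below 0. The septum list also stood lower under CBE without overlap in FVB mice (4.486 to 4.489 against 4.505 to 4.586). It did so too in C57 mice (4.386 to 4.411 against 4.492 to 4.531), and it overlapped in C3H mice. Its median change in FVB mice was -0.02, with 3 of 6 genes below 0. In C57 mice the median was -0.12, with 4 of 6 below 0. In SV129 mice the 11 hippocampus genes had mean levels of 4.53 to 4.59 under CBE and 4.44 to 4.49 under PBS. Their median change was 0.02, with 6 of 11 above 0. The part of these lists and of the array medians in the marker levels was not tested.

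**Figure D2:**
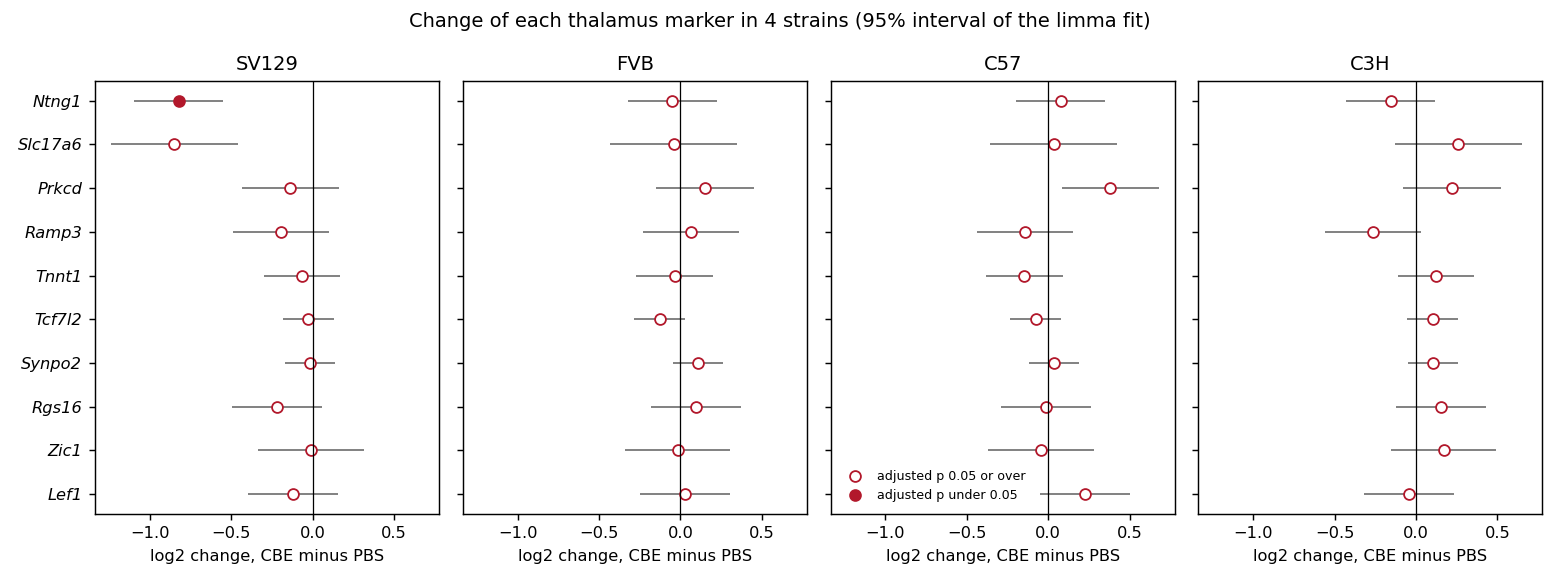
Change of each marker, CBE minus PBS, on the log2 scale in each strain; points are estimates, lines are 95% confidence intervals and filled points passed the test across all genes. All 10 estimates lie below 0 in SV129 mice, with Ntng1 (-0.82) and Slc17a6 (-0.85) farthest, and they lie on both sides of 0 in the other strains.

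In FVB mice no marker passed the test. With limma 0 of 10 passed the test, against 0.135% of all genes, and an ordinary model and a trended prior also called 0. An unadjusted p below 0.05 was found for 0 of 10 markers and 1390 of 22180 genes. Ntng1 stood at 7.61, 7.61 and 7.69 under CBE, against 7.71, 7.63 and 7.72 under PBS. Slc17a6 stood at 8.25, 8.13 and 8.05 under CBE, against 8.04, 8.26 and 8.25 under PBS. Both sets of arrays overlapped. The CBE arrays lay above the PBS arrays for Synpo2 (change 0.11), against 5.09% of all genes, and below them for Tcf7l2 (change -0.13), against 5.96% of all genes.

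In C57 mice Prkcd had the largest difference, upward, and did not pass the test. It stood at 5.50, 5.60 and 5.85 under CBE, against 5.20, 5.34 and 5.26 under PBS, and the groups did not overlap. The change was 0.38 (SE 0.14, 95% confidence interval 0.08 to 0.68, n = 3 each), with an unadjusted p of 0.0148 and an adjusted p of 0.654 in limma. The difference was 0.23 for Lef1 and 0.08 for Ntng1. With limma 0 of 10 markers passed, against 0.325% of all genes, and the ordinary and trended models called 0. An unadjusted p below 0.05 was found for 1 of 10 markers and 1281 of 22180 genes. Prkcd was the 1 marker whose CBE arrays all lay higher, against 5.82% of all genes.

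In C3H mice Slc17a6 stood at 7.87, 8.24 and 7.89 under CBE, against 7.68, 7.97 and 7.56 under PBS. The groups overlapped, and the change was 0.26, opposite in sign to that in SV129 mice. Prkcd differed by 0.22, with CBE replicate 1 at 5.81 above the other CBE arrays at 5.27 and 5.09, and Ramp3 differed by -0.26. The median change over the 10 markers was 0.11, against -0.01 over all genes, and 3 of 10 lay below 0, against 52.6% of all genes. With limma 0 of 10 passed, against 0.0361% of all genes, and the ordinary and trended models called 0. An unadjusted p below 0.05 was found for 0 of 10 markers and 1114 of 22180 genes.

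For the mean of the 4 strains, limma called 0 of 10 markers, against 0.726% of all genes, and the ordinary and trended models called 0. An unadjusted p below 0.05 was found for 2 of 10 markers and 2384 of 22180 genes. Those 2 markers were Ntng1 at -0.24 (SE 0.07, adjusted p = 0.125) and Prkcd at 0.15 (adjusted p = 0.448). Whether the change differed between strains was tested with an F-test of 4 equal changes, which 0 of 10 markers passed, against 0.00902% of all genes. In that limma test 2 markers had an unadjusted p below 0.05, and the ordinary and trended models called 0. How many of all genes had one was not counted. Ntng1 had F = 9.36 with an adjusted p of 0.257, and Slc17a6 had F = 6.66 with an adjusted p of 0.504. The Ntng1 change in SV129 mice minus that in C57 mice was -0.90 (95% confidence interval -1.29 to -0.51, limma adjusted p = 0.105). So the fall in SV129 mice was not shown to differ from the changes in the other strains after adjustment.

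Between the PBS mice of the 4 strains, 3 of 10 markers passed an F-test of equal levels, against 13% of all genes. They were Ntng1 (F = 20.4, adjusted p = 1.38e-04), Slc17a6 (F = 8.30, adjusted p = 0.0118) and Ramp3 (F = 8.29, adjusted p = 0.0118) in limma. The ordinary and trended models also called 3. Slc17a6 missed the threshold without C3H PBS replicate 3 (adjusted p = 0.0603). Rgs16 had an adjusted p of 0.0928, and it passed without SV129 PBS replicate 1 (0.00379) or C57 PBS replicate 3 (0.0454).

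Ntng1 averaged 8.33 ± 0.31 in SV129 PBS mice, 7.78 ± 0.14 in C3H, 7.68 ± 0.05 in FVB and 7.32 ± 0.10 in C57 (SD, n = 3 each). The 3 SV129 arrays lay above all 9 PBS arrays of the other strains, and the 3 C57 arrays lay below all other PBS arrays. SV129 minus C57 was 1.01 (SE 0.13, limma adjusted p = 3.27e-05), in a comparison that called 7.72% of all genes. SV129 minus FVB was 0.65 (limma adjusted p = 0.00542), where 3.88% of all genes were called. Neighbours in this order lay closer. SV129 minus C3H was 0.55 (limma adjusted p = 0.0245, 2.34% of all genes called), and it missed the threshold when any of the C3H PBS arrays or SV129 PBS replicate 1 or 2 was left out (0.0503 to 0.132) and in an ordinary linear model (0.0605). C57 minus C3H was -0.46 (limma adjusted p = 0.0372), and it missed the threshold without C57 PBS replicate 1 or 2 or C3H PBS replicate 1 or 2 (0.123 to 0.133), with the PBS arrays alone (0.0519) and in an ordinary linear model (0.0682). FVB minus C3H was -0.09 (limma adjusted p = 0.861, 2.28% of all genes called), and FVB minus C57 was 0.37 (limma adjusted p = 0.0978, 7.91% of all genes called), with 0.049 without SV129 PBS replicate 1.

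Slc17a6 kept another order, with 8.59 ± 0.40 in SV129 PBS mice, 8.49 ± 0.22 in C57, 8.19 ± 0.12 in FVB and 7.74 ± 0.21 in C3H (SD, n = 3 each). C57 mice, lowest for Ntng1, stood second for Slc17a6, and SV129 minus C57 was 0.10 (95% confidence interval -0.29 to 0.49, limma adjusted p = 0.843). SV129 minus C3H was 0.85 (SE 0.19, limma adjusted p = 0.0143), and it missed the threshold without SV129 PBS replicate 2 (0.106) or without C3H PBS replicate 1 (0.0656) or 3 (0.0802), and in an ordinary linear model (0.0512). C57 minus C3H was 0.75 (limma adjusted p = 0.0162, 6.7% of all genes called), and it missed the threshold without C57 PBS replicate 3 (0.0881) or C3H PBS replicate 1 (0.0621) or 3 (0.0825).

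Ramp3 stood at 5.77, 5.90 and 6.12 in SV129 PBS mice, 6.11, 5.96 and 5.82 in C57, 5.66, 5.37 and 5.79 in C3H and 5.48, 5.31 and 5.26 in FVB. The FVB arrays all lay below the SV129 and C57 arrays. FVB minus C57 was -0.61 (SE 0.14, limma adjusted p = 0.00936), with 0.0563 without C57 PBS replicate 1. SV129 minus FVB was 0.58 (limma adjusted p = 0.0217), and it missed the threshold without SV129 PBS replicate 2 or 3 or FVB PBS replicate 2 or 3 (0.0609 to 0.105) and in an ordinary linear model (0.0502). So the 3 markers that differed between strains each had a different strain lowest: C57 for Ntng1, C3H for Slc17a6 and FVB for Ramp3.

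The other 7 markers did not pass the F-test of the PBS groups. Prkcd averaged 5.47 ± 0.24 in SV129 PBS mice, 5.27 ± 0.07 in C57, 5.17 ± 0.14 in C3H and 5.03 ± 0.17 in FVB (SD, n = 3 each), and SV129 minus FVB was 0.44 (limma adjusted p = 0.0985). Rgs16 averaged 6.89 ± 0.35 in SV129 PBS mice, 6.83 ± 0.22 in C57, 6.65 ± 0.08 in FVB and 6.46 ± 0.12 in C3H, and SV129 minus C3H was 0.43 (limma adjusted p = 0.112). SV129 PBS replicate 1, at 6.49, lay apart from replicates 2 and 3 at 7.05 and 7.13. Of the transcription factors, Zic1 averaged 5.21 ± 0.18 in FVB PBS mice and 4.80 ± 0.14 in C57, the highest and the lowest of the 4 strains (limma adjusted p of the F-test 0.256). The PBS means of Lef1 lay between 5.01 and 5.29 and those of Tcf7l2 between 4.08 and 4.21. The PBS means of Tnnt1 lay between 3.71 and 3.89 and those of Synpo2 between 3.31 and 3.42. Over all 24 arrays Tcf7l2 ranged between 3.98 and 4.35 and Synpo2 between 3.22 and 3.56, less than the spans of Slc17a6 (7.49 to 9.0) and Ntng1 (7.25 to 8.65).

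The markers were then compared array by array inside the groups, which removes both strain and agent. Each value was taken as its deviation from the mean of its group of 3, and the markers did not rise and fall together. Of the 45 pairs of markers, 20 had a positive Pearson correlation over the 24 arrays, with a median r of -0.02 and a range of -0.58 to 0.53. Pairs with Tnnt1, Tcf7l2 or Synpo2 rest on signals at or under the median of all probe sets, where shared movement can be hidden. Each array had between 1 and 7 of the 10 markers above its group mean. C3H CBE replicate 3 had 1, and C3H CBE replicate 1, SV129 CBE replicate 2 and SV129 PBS replicate 1 had 7.

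The 2 brightest markers, Ntng1 and Slc17a6, both lower under CBE in SV129 mice, did not follow each other inside groups, with r = -0.01 (permutation p = 0.97) and rho = 0.18 (permutation p = 0.53). Without the 2 arrays farthest out in Ntng1, SV129 PBS replicate 1 and SV129 CBE replicate 1, r was 0.39. On SV129 PBS replicate 1, Ntng1 was at its highest (8.65) while Slc17a6 was at its lowest of the 3 (8.21). The pair with the highest r was Zic1 and Lef1, with r = 0.53 (permutation p = 0.0096) and rho = 0.59 (permutation p = 0.0062), and r = 0.45 without the 2 arrays farthest out in Zic1. In SV129 CBE mice, for example, Zic1 stood at 4.83, 5.45 and 5.01 and Lef1 at 5.06, 5.29 and 5.16, both highest in replicate 2. Within the CBE arrays r was 0.69 and within the PBS arrays 0.40. The lowest was Ramp3 and Synpo2, with r = -0.58 (permutation p = 0.014) and rho = -0.58 (permutation p = 0.018), and r = -0.52 without the 2 arrays farthest out. With each marker in turn as a covariate beside the groups, limma called 0 of the 90 ordered pairs after adjustment over all genes, against 0.0496% of all gene slopes. For 9 ordered pairs the unadjusted p was below 0.05, and the ordinary and trended models called 0. How many of all gene slopes had such a p was not counted. For Zic1 and Lef1 the adjusted p of the slope was 0.743 with Zic1 as covariate and 0.548 with Lef1 as covariate.

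**Figure D3:**
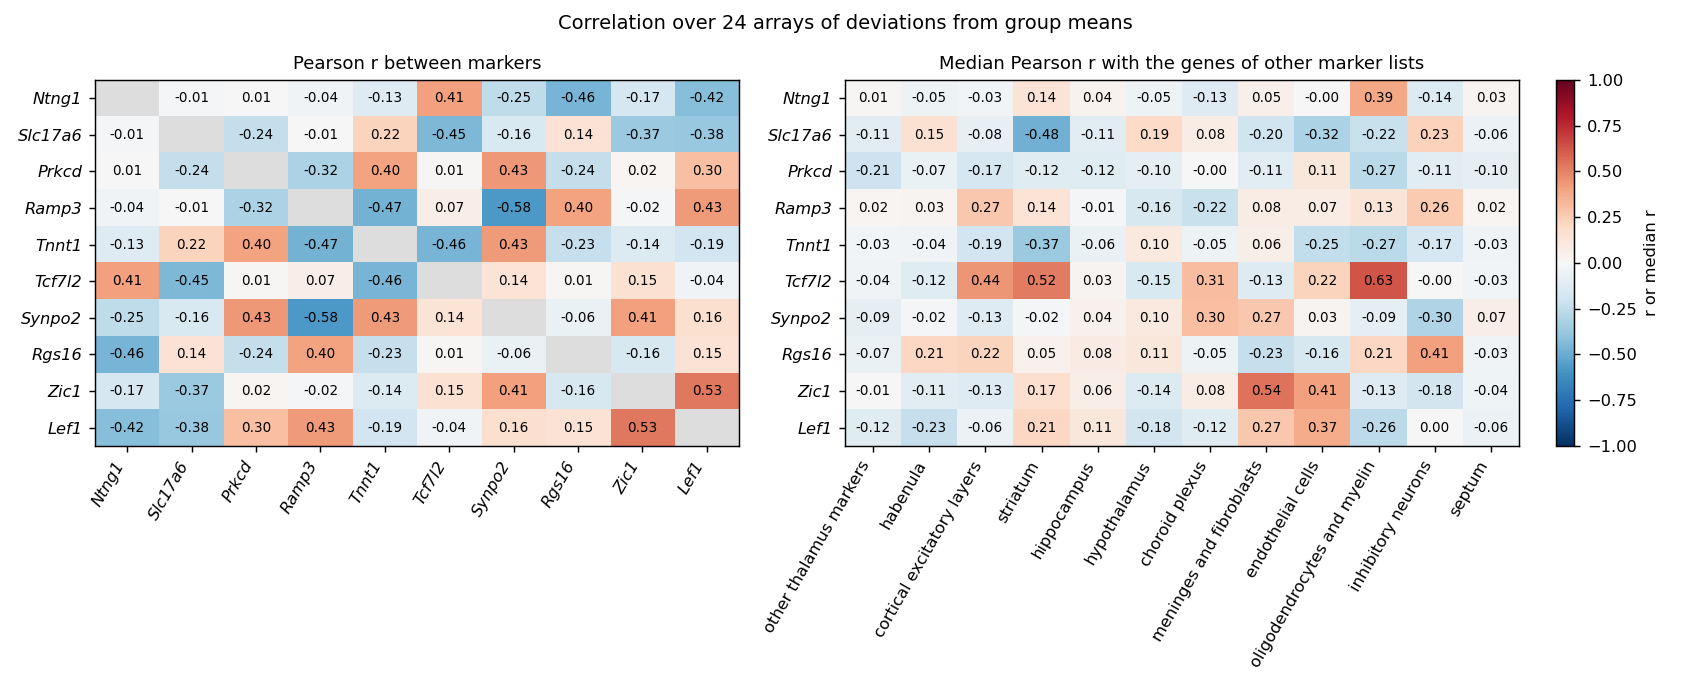
Left, Pearson r between markers, and right, median Pearson r of each marker with the genes of 12 other lists, over deviations of the 24 arrays from their group means; colour and printed value give r. Between markers r runs between -0.58 (Ramp3 and Synpo2) and 0.53 (Zic1 and Lef1), and on the right Tcf7l2 with myelin genes (0.63) is highest and Slc17a6 with striatum genes (-0.48) lowest.

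The other lists ranged widely in how closely their genes moved together on the same arrays. All 36 pairs of the 9 oligodendrocyte and myelin genes had a positive r, with a median of 0.93 and a range of 0.76 to 0.97. All 55 pairs of the 11 meninges and fibroblast genes had a positive r, with a median of 0.55. The striatum list had a median r of 0.41 over 36 pairs and the endothelial list 0.39 over 45 pairs. The inhibitory neuron list had a median r of 0.29 over 28 pairs. Most lists of brain regions also had low medians, with 0.15 for the cortical and the hypothalamus genes, 0.13 for choroid plexus, 0.08 for habenula, -0.02 for hippocampus and -0.10 for septum. The 15 other thalamus markers had a median r of -0.04 over 105 pairs, with 44 positive, close to that of the 10. These lists were chosen with results of these arrays known, the pairs of a list share arrays and genes, and no test compares the lists.

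**Figure D4:**
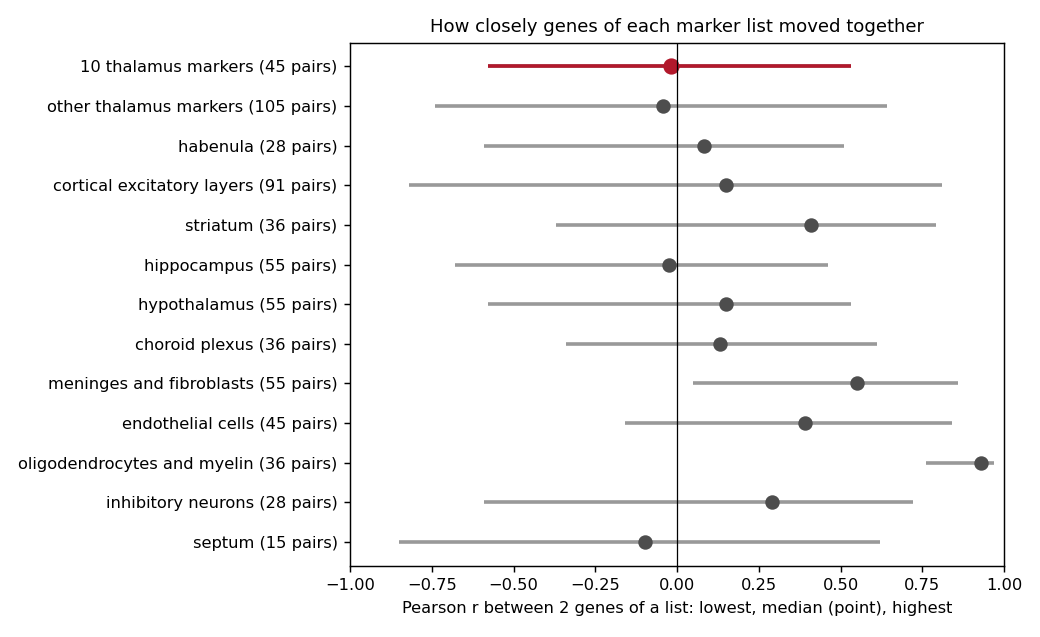
Pearson r between pairs of genes within each list, over deviations of the 24 arrays from their group means; the point is the median over pairs and the line runs between the lowest and the highest. The 10 thalamus markers have a median of -0.02 and the 15 other thalamus markers -0.04, against 0.55 for meninges and 0.93 for myelin genes.

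The list of other thalamus markers was described in the same way, and all 15 were measured. It is not separate from the lists of other regions, as Prox1 also stands on the hippocampus list. Under CBE limma called 0 of 15 in each strain and in the mean of the 4 strains. Those with an unadjusted p below 0.05 were 4 in SV129 mice, 2 in the mean and 0 in FVB, C57 and C3H mice. Of all 22180 genes, 2886 had one in SV129 mice, 2384 in the mean, and 1390, 1281 and 1114 in FVB, C57 and C3H mice. In SV129 mice their median change was -0.10, with 8 of 15 below 0, and Cbln1, which encodes a secreted synapse organiser, differed by -0.66 (limma adjusted p = 0.155, the smallest of the 15). Their mean level lay between 5.65 and 5.76 on the SV129 CBE arrays and between 5.80 and 5.82 on the PBS arrays. Between the PBS groups 5 of 15 passed the F-test, against 13% of all genes: Kitl, Nexn, Prox1, Cbln1 and Calb2, with adjusted p-values between 0.00329 for Kitl and 0.0477 for Calb2 in limma. The habenula list, for the nucleus that adjoins the thalamus, overlapped between the groups in SV129 mice, at 5.88 to 6.00 under CBE and 5.84 to 6.07 under PBS.

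Inside the groups single markers moved with other genes, some of them on the lists of thalamus or of other tissues. The values that follow are Pearson correlations of deviations over the 24 arrays, with the adjusted p of the limma slope over all other genes. For each marker 22179 genes were compared, and the values describe shared movement on these arrays only. For 59 genes (0.266%) the slope on Slc17a6 passed the test, and the nearest were Nr1d2, a clock-linked nuclear receptor (r = 0.91, adjusted p = 0.0117), Slc13a5, a citrate transporter (r = 0.87, adjusted p = 0.0162), and Plcxd2 (r = 0.86, adjusted p = 0.0117). Nr1d2 had rho = 0.85, and r = 0.85 without the 2 arrays farthest out in Slc17a6. Among the listed genes those passing were Rora (r = 0.86), Rorb (r = 0.81) and Rspo1 (r = 0.80), each with an adjusted p of 0.0213. Rora was on the list of other thalamus markers, and Rorb, known from cortical layer 4, and Rspo1 were on the cortical list. Most genes of both lists went the other way. With Slc17a6, 6 of 15 other thalamus markers had a positive r (median -0.11), and 5 of 14 cortical genes did (median -0.08). Slc17a7, the cortical transporter, had r = -0.57 (adjusted p = 0.326), and the striatum list had a median r of -0.48 with Slc17a6.

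Tcf7l2 moved with oligodendrocyte genes and with part of the striatum and cortical lists. Its nearest genes were Pcp4, a calmodulin-binding protein (r = 0.89, adjusted p = 0.0128), St18 (r = 0.85, adjusted p = 0.0243) and Enpp6, a marker of newly forming oligodendrocytes (r = 0.85, adjusted p = 0.0128). Enpp6 had rho = 0.83, and r = 0.80 without the 2 arrays farthest out in Tcf7l2. The limma slope passed for 40 genes, 0.18% of all. All 9 myelin list genes had r over 0.5 with Tcf7l2 (0.55 to 0.67), against 5.49% of all genes, and 0 of the 9 passed after adjustment while 9 had an unadjusted p below 0.05. How many of all genes had such a p was not counted. These 9 genes moved closely with each other (median r 0.93), so they are not 9 separate observations. The dopamine receptor gene Drd1 (r = 0.82, adjusted p = 0.0243) and Rgs9 (r = 0.77, adjusted p = 0.0333) of the striatum list passed. Bcl11b (r = 0.78, adjusted p = 0.030) and Nr4a2 (r = 0.76, adjusted p = 0.0378), deep-layer neuron genes of the cortical list, also passed. Of the striatum list, 8 of 9 genes had a positive r with Tcf7l2 (median 0.52) and 5 had r over 0.5. Of the cortical list, 9 of 14 had a positive r (median 0.44, lowest -0.59) and 7 had r over 0.5.

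Zic1 moved with meninges genes. Its slope passed for 1 gene, Ogn, a proteoglycan of fibroblasts (r = 0.84, adjusted p = 0.0233), which was 0.00451% of all genes. Ogn had rho = 0.83, and r = 0.78 without the 2 arrays farthest out in Zic1. Fbln1 (r = 0.80) and Colec12 (r = 0.79) came next and did not pass. All 11 meninges and fibroblast genes had a positive r with Zic1, with a median of 0.54, and 6 of 11 had r over 0.5, against 2.66% of all genes. These 11 genes also moved with each other (median r 0.55), so they are not separate observations. With endothelial genes both Zic1 (median 0.41) and Lef1 (median 0.37) had a positive r for 9 of 10, and Lef1 had a positive r with 10 of 11 meninges genes (median 0.27). The median r over all genes was 0.0017 for Zic1 and 0.023 for Lef1.

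**Figure D5:**
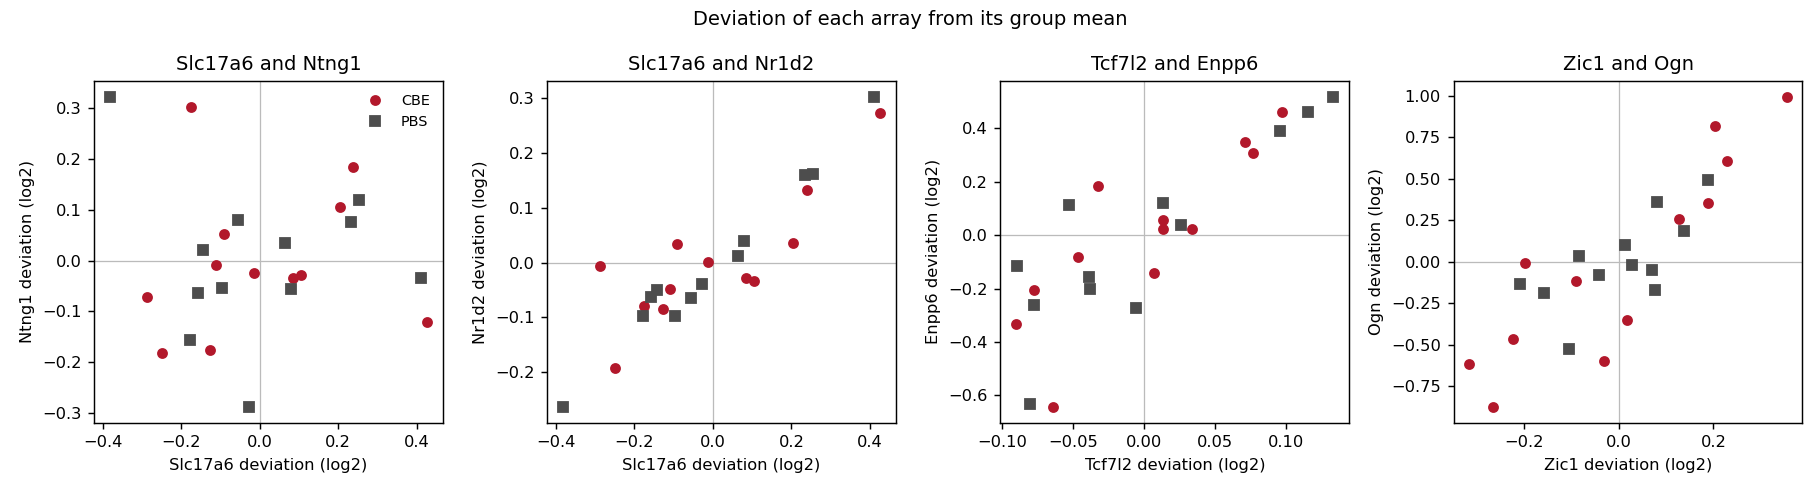
Deviation of each array from its group mean, in log2 units, for 4 pairs of genes; red circles are CBE arrays and grey squares PBS arrays. Ntng1 does not follow Slc17a6 (r = -0.01), while Nr1d2 follows Slc17a6 (r = 0.91), Enpp6 follows Tcf7l2 (r = 0.85) and Ogn follows Zic1 (r = 0.84).

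Prkcd moved with a proliferation gene and a myeloid gene. The nearest were Mki67, a proliferation marker (r = 0.83, adjusted p = 0.0322), and Cybb, the phagocyte NADPH oxidase subunit (r = 0.83, adjusted p = 0.0322), and 7 genes passed (0.0316%). Without the 2 arrays farthest out in Prkcd, r was 0.66 for both Mki67 and Cybb. For Cybb, r was 0.97 within the CBE arrays and 0.66 within the PBS arrays. Cybb itself rose under CBE by 1.33 on the log2 scale in the mean of the 4 strains (SE 0.18, limma adjusted p = 2.08e-04). It rose by 2.0 in C57 mice (limma adjusted p = 0.00969). The rise was 1.45 in C3H, 1.32 in FVB and 0.54 in SV129 mice, where it did not pass. Prkcd differed by 0.38 in C57, 0.22 in C3H, 0.15 in FVB and -0.14 in SV129 mice. Its CBE and PBS arrays overlapped except in C57 mice. The part of Cybb-expressing cells in the Prkcd values was not tested.

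For the other markers none of the 3 nearest genes passed the test. Ntng1 was nearest to Gng11, a G-protein gamma subunit (r = 0.84, adjusted p = 0.193). For Ramp3 the nearest was Erich1 (r = 0.83), for Tnnt1 it was Manbal (r = 0.82), and for Synpo2 it was Vwa3b (r = 0.80). For Rgs16 the nearest were Slc35a4 (r = 0.86, adjusted p = 0.142) and Slc35c1 (r = 0.85, adjusted p = 0.0822), and 3 genes passed (0.0135%). Of the 3 nearest genes of each marker, none was another of the 10. Spread inside groups also differed between the markers: the SD was 0.256 for Slc17a6, higher than for 95.6% of genes, and 0.209 for Zic1 (90.5%), but 0.0832 for Tcf7l2 (13.5%) and 0.0802 for Synpo2 (11.5%), against a median of 0.123 over all genes.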

How the data were processed

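Per the labels' protocols, total RNA was column-purified with DNase and made into biotin-labelled fragments for Affymetrix arrays. The deposited values are log2 signals, 1 per probe set and array, made by the authors with Partek and RMA (robust multi-array average) per the submitters' processing notes, which give no versions. No source used here states the log base, which was taken as 2 from the highest value, 14.09. Scanner files were not used here. Of 41034 probe sets, 23521 had 1 symbol in the platform annotation, 1814 had several and 15699 had none. The brightest probe set per symbol was kept, which left 22180 genes, with no filter on dim signals.

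Tests used limma 3.58.1 in R 4.3.3, with 1 mean per group over all 24 arrays, moderated variances (16 residual and 5.10 prior degrees of freedom), two-sided p-values, Benjamini-Hochberg adjustment over all genes and a threshold of 0.05. The procedure was tested on simulated data. Correlations inside groups used deviations from the 8 group means, with 100000 permutations within groups, and slopes came from limma with the marker's level as a covariate. Nearest genes were the 3 with the highest r. Genes of lists were named where they passed the test or had the smallest p, and other genes named in passing, such as Cybb under CBE, were chosen after their values were seen. The 10 members and the other lists were chosen with earlier results of these data known. Alternatives were median centring, quantile normalization, a dim-signal filter, a trended prior, an ordinary linear model, fits on fewer groups, replicate blocks and leaving out each array. Each array is labelled as 1 mouse. The number of arrays limits the precision. Over all probe sets, Pearson correlations between arrays of 1 group ran between 0.9888 and 0.9931. Promoter windows came from RefSeq (GRCm38.p6), and the probe sets' genome build is not given in the sources used here.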

Additional observations from a re-analysis of the deposited data

How the results depend on the processing

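In SV129 mice 1 marker passed under CBE, with 25 genes called in all. That count was 2 with each array centred on its median (143 genes called) and 2 among the 12291 genes left by the dim-signal filter (60 genes), which kept 7 of the 10 markers. The second was Slc17a6, at adjusted p-values of 0.0334 and 0.0481. The count was 0 with an ordinary linear model (7 genes) and 0 with the SV129 arrays alone (4 genes), which also has fewer arrays. Leaving out 1 array at a time gave 0 to 2. For the mean of the 4 strains, where 0 passed, leaving out 1 array gave 0 to 1, with Ntng1 passing without SV129 PBS replicate 3 (adjusted p = 0.037) and without SV129 CBE replicate 1 (0.0316). Replicate numbers are shared between groups, but of 12 same-numbered pairs 3 had a correlation of deviations over 0.1 (range -0.193 to 0.196), so the numbers were not taken to pair the mice. With the number as a replicate block within each strain, 1 marker, Ntng1, passed for the mean of the 4 strains (adjusted p = 0.0347), and a block over all groups changed no count of markers. Between PBS groups the count of 3 ran between 2 and 4 when 1 array was left out. No difference that passed the threshold changed sign under an alternative. Some that did not pass did so when 1 array was left out, such as Synpo2, Tcf7l2, Tnnt1 and Zic1 under CBE in SV129 mice, whose values ran up to 0.05, 0.02, 0.03 and 0.12. Other single values that passed the threshold under an alternative included Zic1, FVB minus C57 in PBS mice, with the PBS arrays alone (adjusted p = 0.0402), and Prkcd, SV129 minus FVB in PBS mice, without C3H CBE replicate 1 (0.0321). For single markers 4115 values kept their side of the threshold, 16 passed it and 30 lost it. Pairs of markers and pairwise differences of change between strains are not in these counts. The causes of these moves were not tested. Signals near the median of all probe sets limit Tnnt1, Tcf7l2 and Synpo2.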
